A study of Mus musculus with 246 samples.

Results

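The gene expression response to a social interaction was measured in the medial prefrontal cortex (mPFC) of adult male CD1 mice, an outbred strain. All libraries labelled as prefrontal cortex were used, 41 of 246 in the series, and 20 SocialInteraction libraries were compared with 21 NoInteraction libraries. Each library held polyA RNA from bilateral punches of the infralimbic and prelimbic cortex pooled for 1 mouse, and the other libraries of the series came from 5 further brain regions. The mice had been reared in 3 groups. In Ctrl_Vehicle (6 with interaction, 7 without) the litters had standard bedding and the dams received empty gel. In ELA_Vehicle (7 and 7) bedding and nesting material were limited from postnatal day 2 to 9 and the dams received empty gel. In ELA_SAFit2 (7 and 7) the litters had the same early life adversity (ELA), and the dams received a gel with SAFit2, an inhibitor of the stress-related co-chaperone FKBP51, which reached the pups through the milk. The interaction with an unfamiliar mouse lasted 10 min in adulthood. The sources used here do not give the time from the interaction to sacrifice or what the NoInteraction mice did instead, so social contact and the rest of the procedure cannot be told apart. The 3 groups were pooled for the main comparison, with group as a covariate.

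The infralimbic and prelimbic cortex take part in evaluating other animals and in restraining stress responses. When cortical neurons fire, calcium entry and the MAP kinase cascade act on CREB, SRF and related factors that are already present, and these switch on genes in waves. Rapid genes such as Fos, Arc and Npas4 encode short-lived RNAs that come and go quickly, whereas slower genes encode secreted and synaptic proteins that change how the neuron signals. An encounter with a stranger also raises circulating glucocorticoids, which act through the glucocorticoid receptor on a separate set of target genes, Fkbp5 among them.

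Total counts lay between 23264116 and 39360386 per library, with a median of 28976254 in the SocialInteraction arm and 31406476 in the NoInteraction arm. Cortical excitatory neuron markers were high in every library, with a median summed level of 5300 CPM in both arms and lowest values of 4620 CPM without and 4360 CPM with interaction (CPM, counts per 1000000 of a library total scaled with TMM factors). Each of the 41 libraries matched its own mouse best when compared with the anterior cingulate cortex (ACC) and basolateral amygdala (BLA) libraries over 209 genes that differ between mice. In 14 libraries, 5 with and 9 without interaction, the summed level of olfactory bulb or striatal neuron markers was over 2 times the median. Counts of called list members are also given without these 14 libraries, where 3.42% of all genes tested were called. The mouse numbers were cut into 14 runs of 8 consecutive numbers, 7 in each arm, and no run held both arms. The cut was set here and in places splits a longer stretch of numbers of the same arm. The labels do not say whether such a run or stretch is a shared unit. Anything shared within a run cannot be told apart from the arm.

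Social interaction was followed by many small differences and a few large ones. Of 15812 protein-coding genes tested, 1204 were called at an adjusted p under 0.05 (edgeR quasi-likelihood test, Benjamini-Hochberg adjustment over all genes), which is 7.61%. Levels rose for 782 genes (4.95%) and fell for 422 (2.67%). The median size of a called difference was 0.122 on the log2 scale. Only 52 called genes differed by more than 0.5, of which 45 rose and 7 fell. The steepest rises were those of Plin4, Dapk2, Egr3, Nptx2, Inhba and Fosb, and the steepest falls those of Zfp804b, Abcc6, Slc22a3, Casq2 and Hmcn1, among genes with a mean of at least 1 CPM. Without the 14 libraries high in neighbouring-tissue markers, 540 genes were called (3.42%), 471 of them among the 1204. With the counts summed within runs of mouse numbers, 7 sums against 7, 183 genes were called. When the counts were scaled by library size alone the split turned, with 463 rises and 793 falls, so the balance of direction depends on the scaling.

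The activity-induced effectors held some of the steepest rises, among them Nptx2 and Inhba. The list is mixed, with genes of synaptic and secreted proteins beside Arc, named above as rapid, and the kinase gene Pim1. Of 24 members tested, 12 rose and none fell, against 4.95% and 2.67% of all genes, and the median log2 fold change of the list was 0.26 against −0.00196 over all genes. All 24 estimates were above 0, although that of Ccn1 was 0.01 and that of Tiparp 0.04. Leaving out the 14 libraries, 10 members rose, and Vgf and Gpr3 were not called.

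Nptx2 encodes a neuronal pentraxin that is secreted and gathers AMPA receptors at excitatory synapses onto inhibitory neurons. Its level ranged from 30.5 to 58.0 CPM without interaction (median 45.1) and from 55.1 to 106 CPM with it (median 81.6). All but 1 of the SocialInteraction libraries lay above the highest NoInteraction library. The log2 fold change was 0.88 (SE 0.082, adjusted p = 4.88e-09), the smallest adjusted p of any gene.

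Rheb, a small GTPase that activates the mTORC1 growth pathway, showed a different kind of response. It lay between 72.0 and 85.8 CPM without interaction (median 82.2) and between 86.2 and 97.2 CPM with it (median 93.5). The difference was only 13.9% (log2 fold change 0.19, SE 0.019, adjusted p = 4.71e-08), yet the arms did not overlap, and Rheb was the 1 gene of the 15812 for which this was so.

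Homer1, a postsynaptic scaffold gene whose short activity-induced form uncouples glutamate receptors from their partners, rose from a median of 175 CPM (150 to 258) to 270 CPM (194 to 331). Every SocialInteraction library was above the NoInteraction median and 12 of 20 were above its highest library (log2 fold change 0.58, SE 0.066, adjusted p = 2.9e-07). The table counts genes, so the short and long forms were not separated.

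Bdnf, the neurotrophin that strengthens active synapses, ranged from 17.6 to 33.4 CPM without interaction (median 22.5) and from 23 to 45.0 CPM with it (median 35.3). The arms overlapped, with 13 of 20 SocialInteraction libraries above all others (log2 fold change 0.64, SE 0.085, adjusted p = 3.06e-06). Ntrk2, the gene of its receptor TrkB, was among the abundant transcripts and rose by 8.91% (log2 fold change 0.12, SE 0.017, adjusted p = 8.28e-06), which was noticed after its value was seen.

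Inhba encodes the activin A subunit, a secreted factor that is induced by synaptic activity. It went from a median of 11.4 CPM (6.43 to 19.2) to 21.1 CPM (14.2 to 36.3), with a log2 fold change of 0.87 (SE 0.11, adjusted p = 1.92e-06). The other effectors that rose were the kinase gene Pim1 (0.66), Vgf (0.37) and Scg2 (0.31), which encode precursors of neuropeptides, the peptide-processing convertase gene Pcsk1 (0.29), the DNA demethylation factor gene Gadd45b (0.37), the orphan receptor gene Gpr3 (0.34) and Rgs2 (0.23), a brake on G protein signalling. Vgf, Scg2 and Pcsk1 thus belong to 1 route, the making of secreted peptides. The level of Pcsk1 lay above the NoInteraction median in 19 of 20 SocialInteraction libraries.

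The promoters of Scg2 and Pcsk1 both hold the full cAMP response element TGACGTCA, the site that CREB binds, and stretches of them are printed to show it. The sequences are those of RefSeq on GRCm38.p6, read 5′ to 3′ along the gene's strand, with the element in capitals. That of Scg2 is chr1:79440027-79440126 on the minus strand and that of Pcsk1 is chr13:75089757-75089856 on the plus strand.
Scg2: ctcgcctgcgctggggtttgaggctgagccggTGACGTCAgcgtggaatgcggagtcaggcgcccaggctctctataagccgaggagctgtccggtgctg
Pcsk1: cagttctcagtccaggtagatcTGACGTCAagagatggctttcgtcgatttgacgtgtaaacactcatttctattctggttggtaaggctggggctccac
The element, which reads the same on both strands, lay within 250 bases upstream of 32 of the 624 risen genes with a promoter in the table (5.13%), of 8 of 341 fallen genes (2.35%) and of 339 of 12278 genes tested (2.76%). These shares describe the letters in this window and were not tested.

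The rapid response transcription factors were less uniform. Of 26 tested, 3 rose (Egr3, Fosb and Fosl2) and none fell, which is 11.5% against 7.61% of all genes. Of the estimates, 23 were above 0, and the median was 0.19. The same number rose without the 14 libraries.

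Egr3, a zinc finger factor downstream of MAP kinase signalling, went from a median of 124 CPM (88.7 to 192) to 236 CPM (155 to 311). Every SocialInteraction library lay above the NoInteraction median and 16 of 20 above its highest library (log2 fold change 0.89, SE 0.098, adjusted p = 1.5e-07). Fosb, whose truncated product accumulates with repeated stimulation, went from 12.6 CPM (6.67 to 27.8) to 26.9 CPM (16.4 to 47.5), and 9 of 20 libraries exceeded all NoInteraction libraries (log2 fold change 0.85, SE 0.14, adjusted p = 8.56e-05). Fosl2, another member of the AP-1 family, changed by 0.59 (SE 0.11, adjusted p = 0.000696).

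Fos itself, the classical marker of recent neuronal activity, did not pass the test. It varied from 1.77 to 63.9 CPM among the NoInteraction mice alone (median 13.1), and from 4.3 to 75.2 CPM with interaction (median 25.6). The log2 fold change was 0.32 with an SE of 0.35 (adjusted p = 0.701). Arc, whose product removes AMPA receptors from synapses, ranged from 22.9 to 299 CPM without and from 34.9 to 292 CPM with interaction (0.42, SE 0.3, adjusted p = 0.494). Npas4 gave 0.30 (SE 0.28) and Egr1 0.27 (SE 0.17), and Jun gave −0.02 (SE 0.067). For Fos and Arc the spread between mice of 1 arm was nearly as wide as the range over both arms, and the SE of Fos was 0.35 against 0.098 for Egr3. Small SEs also occurred among the factors that were not called, with 0.067 for Jun and 0.03 for Srf (0.06).

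MAP kinase feedback regulators, which are switched on by the cascade and then restrain it, held 6 rises. Of 13 tested, Spry2, Spry4, Dusp4, Spred1, Spred2 and Spred3 rose and none fell, against 4.95% and 2.67% of all genes, with a median of 0.15 and all 13 estimates above 0. Spry2 lay between 28.9 and 45.2 CPM without interaction (median 39.9) and between 40.3 and 53.1 CPM with it (median 45.0), and all 20 SocialInteraction libraries were above the NoInteraction median (0.23, SE 0.038, adjusted p = 0.000131). Spry4 and Dusp4 changed by 0.35 and 0.37. Only Spry2 and Spry4, 2 of the 13, rose without the 14 libraries.

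Outside the lists, Dapk2, a calmodulin-regulated kinase of the death-associated family, ranked next to Plin4 among the steepest rises. It was scarce, at 0.569 to 1.47 CPM without interaction (median 0.779) and 1.04 to 3.06 CPM with it (median 1.96), and 14 of 20 SocialInteraction libraries lay above all others (log2 fold change 1.17, SE 0.13, adjusted p = 7.48e-08). Crh, the gene of corticotropin-releasing hormone, which in the cortex is made by a subset of inhibitory neurons, went from a median of 2.74 CPM (1.77 to 3.96) to 3.51 CPM (2.64 to 7.26). The change was 0.45 (SE 0.1, adjusted p = 0.00423). Dio2, which activates thyroid hormone in glia, changed by 0.50 (SE 0.081, adjusted p = 6.97e-05), Crem, a CREB family gene with an inducible repressor form, by 0.34 (SE 0.048, adjusted p = 6.77e-06) and Rasd1, a dexamethasone-induced Ras relative, by 0.72 (SE 0.17, adjusted p = 0.00642). Crh, Dio2 and Crem were chosen after their values were seen. The peptidoglycan recognition gene Pglyrp1 (0.81) and the lipid desaturase gene Scd4 (0.71) completed the steepest rises with Hspb1, described below.

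**Figure D1:**
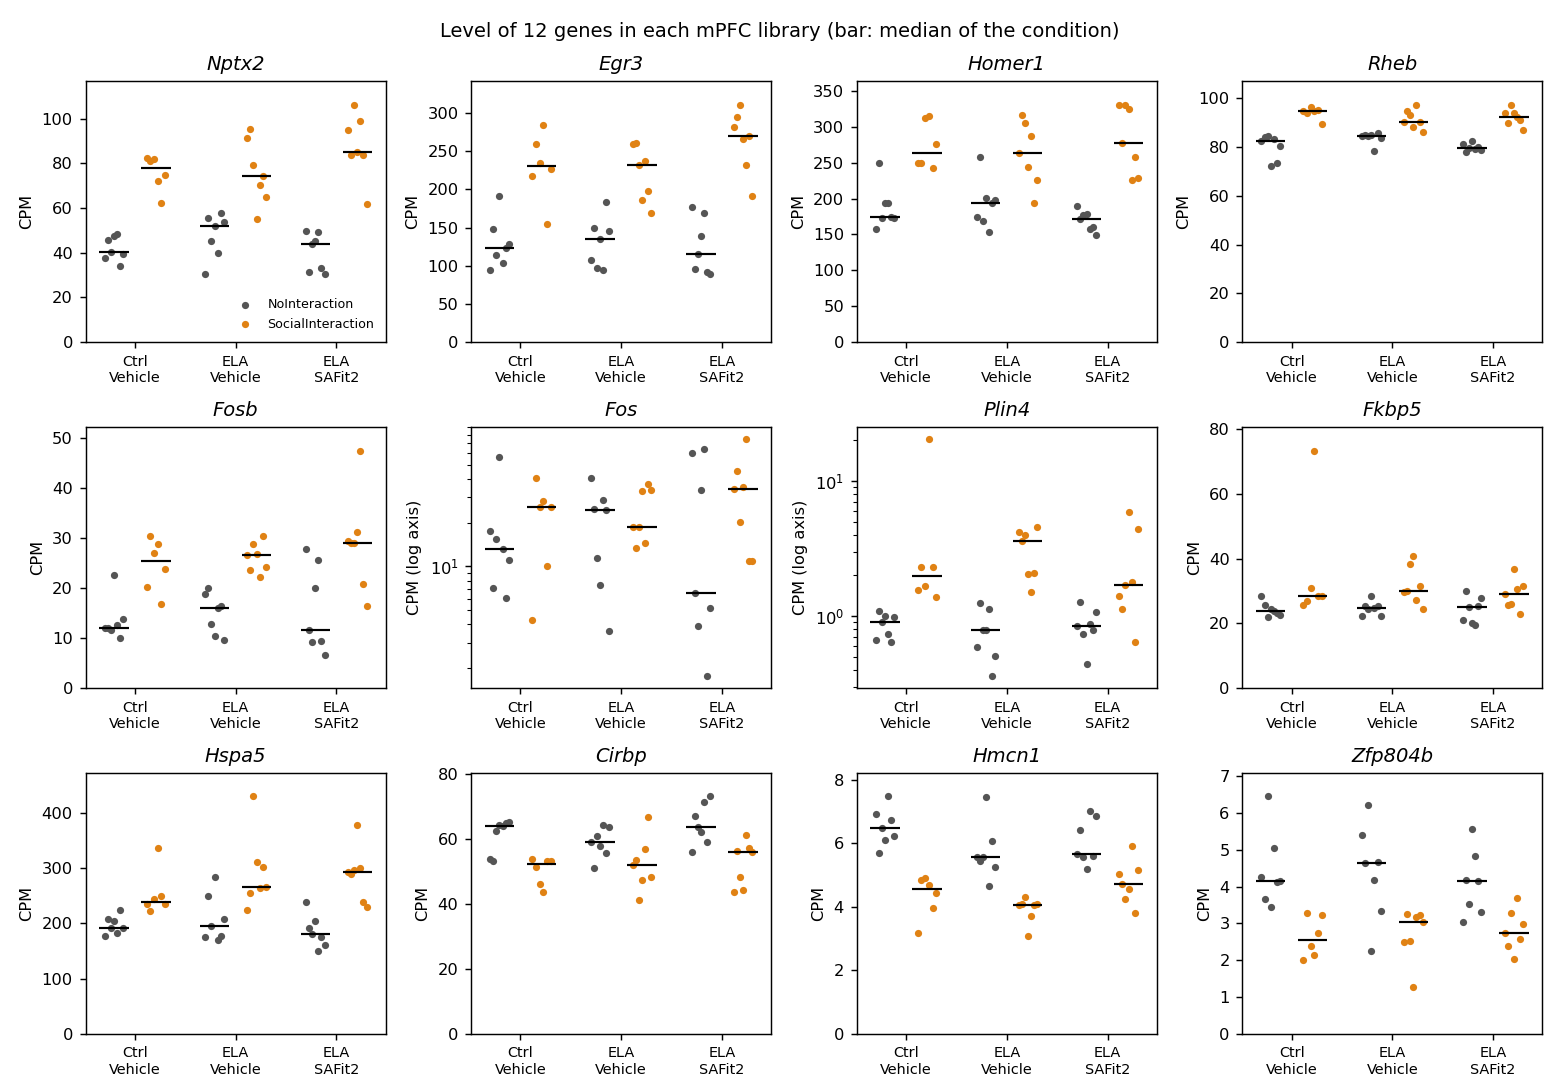
Level (CPM) of 12 genes in each of 41 mPFC libraries, by group and arm; each point is 1 mouse, the bar is the median of its condition, and Fos and Plin4 are on log axes. The arms of Rheb do not overlap, those of Fos overlap almost fully, and 1 Ctrl_Vehicle mouse with interaction stands above all others for Plin4 and Fkbp5.

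Glucocorticoid-induced genes were examined next. Of 20 tested, 7 rose and none fell, against 4.95% and 2.67% of all genes, and 13 did not pass the test. The median of the list was 0.19, and 0.12 without the 1 library described below. Plin4, a coat protein of lipid droplets, had the steepest rise of all genes with a mean of at least 1 CPM. It lay between 0.359 and 1.28 CPM without interaction (median 0.794) and between 0.647 and 20.6 CPM with it (median 2.06), and 18 of 20 SocialInteraction libraries lay above every NoInteraction library (log2 fold change 2.0, SE 0.29, adjusted p = 1.49e-05).

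Fkbp5, the gene of FKBP51, which the receptor induces and which in turn lowers the receptor's affinity for hormone, ranged from 19.4 to 30.2 CPM without interaction (median 24.4) and from 22.9 to 73.5 CPM with it (median 29.4). The log2 fold change was 0.39 (SE 0.093, adjusted p = 0.006), and 8 of 20 SocialInteraction libraries lay above all NoInteraction libraries. Tsc22d3, which encodes the anti-inflammatory protein GILZ, went from 30.9 CPM (24.4 to 34.7) to 35.1 CPM (30.4 to 74.7), a change of 0.31 (SE 0.076, adjusted p = 0.00759). The cell cycle inhibitor gene Cdkn1a (0.43), the sulfotransferase gene Sult1a1 (0.68), the metallothionein gene Mt2 (0.35) and the transcription factor gene Klf9 (0.16) also rose. Other classical targets gave values near 0, with 0.00 for the kinase gene Sgk1 (SE 0.04) and 0.02 for Per1 (SE 0.067).

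A Ctrl_Vehicle mouse with interaction, mouse 57, was the highest of the 41 libraries for 13 of the 20 genes of this list. Its Plin4 level of 20.6 CPM compared with 5.93 CPM in the next library, its Fkbp5 level of 73.5 CPM with 40.9 CPM, and its Tsc22d3 level of 74.7 CPM with 49.9 CPM. The same mouse was also highest for all 3 genes in the ACC (Plin4 38.4 CPM) and in the BLA (46.7 CPM). Without this library, 5 of the 20 genes rose, Plin4 changed by 1.55 (SE 0.21, adjusted p = 4.71e-06) and Fkbp5 by 0.28 (SE 0.06, adjusted p = 0.00288), while Sult1a1 (adjusted p = 0.126) and Mt2 (0.12) were not called. Without the 14 libraries high in neighbouring-tissue markers, 3 of the 20 rose (Plin4, Cdkn1a and Klf9), and Fkbp5, Tsc22d3, Sult1a1 and Mt2 were not called.

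The receptors that read the hormone gave no such difference. Nr3c1, the glucocorticoid receptor gene, had medians of 113 CPM without and 112 CPM with interaction (0.00, SE 0.035, adjusted p = 0.99), and Nr3c2, the mineralocorticoid receptor gene, gave −0.13 (SE 0.083, adjusted p = 0.426). Fkbp4, the co-chaperone that opposes FKBP51 at the receptor, rose by 0.13 (SE 0.037, adjusted p = 0.0236), but was not called without the 14 libraries, in the run sums or when the counts were scaled by library size alone. Of 5 oxytocin and vasopressin genes, which are named for social behaviour, Oxt, Avp and Avpr1b were below the count filter, and the receptor genes Oxtr (−0.02, SE 0.17) and Avpr1a (−0.12, SE 0.18) were not called.

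Protein folding genes were the next set. Of 18 heat shock and cold-inducible genes, 11 rose and 2 fell (72.2% against 7.61% of all genes), with a median of 0.12. Hspa5 is 1 of the 11 and is counted again in the endoplasmic reticulum list below. The rises of Hspd1 (0.08), Hsp90aa1 (0.09), Hspe1 (0.10) and Ahsa1 (0.10) were small and were not called with scaling by library size alone. Without the 14 libraries 6 rose and 1 fell. The cytosolic chaperone gene Hsph1 went from 298 CPM (256 to 356) to 375 CPM (297 to 458), and 17 of 20 SocialInteraction libraries lay above every NoInteraction library (0.33, SE 0.045, adjusted p = 6.26e-06). Hspa8, the abundant constitutive chaperone gene, rose by 0.17 (SE 0.029, adjusted p = 8.75e-05), and Hspb1, a small heat shock protein gene, went from 2.05 CPM (0.997 to 4.36) to 2.99 CPM (1.85 to 6.7), a change of 0.68 (SE 0.16, adjusted p = 0.0053). The stress-inducible Hspa1a, the usual marker of heat shock, gave 0.20 (SE 0.15, adjusted p = 0.516).

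The 2 genes of that list that fell are both induced by cold and reduced by warming. Cirbp, which encodes a cold-inducible RNA-binding protein, went from a median of 62.3 CPM (51.1 to 73.0) to 52.5 CPM (41.1 to 66.8), and 8 of 20 SocialInteraction libraries lay below every NoInteraction library (−0.25, SE 0.048, adjusted p = 0.000571). Rbm3, its relative, gave −0.18 (SE 0.057, adjusted p = 0.041). Neither gene was called in the run sums (Cirbp −0.23 and Rbm3 −0.20), and without the 14 libraries Cirbp was called and Rbm3 was not. No body or brain temperature was among the data used.

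The chaperones of the endoplasmic reticulum, where secreted and membrane proteins fold, were also examined. Of 26 chaperone and unfolded protein response genes, a list made after values had been seen, 19 rose and none fell. This is 73.1% against 7.61% of all genes. The median was 0.21, and 12 rose without the 14 libraries. Hspa5, the gene of the central chaperone BiP, ranged from 149 to 285 CPM without interaction (median 192) and from 223 to 431 CPM with it (median 265). All 20 SocialInteraction libraries lay above the NoInteraction median (0.50, SE 0.074, adjusted p = 1.56e-05). Sdf2l1, which helps BiP to release its clients, went from 3.97 CPM (3.18 to 6.12) to 5.92 CPM (4.06 to 13), a change of 0.63 (SE 0.11, adjusted p = 0.000174).

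The other members that rose included the calcium-binding lectin chaperone genes Calr (0.28) and Canx (0.10), the disulfide isomerase genes Pdia3 (0.22), Pdia4 (0.33) and Pdia6 (0.30), the chaperone genes Hsp90b1 (0.21) and Hyou1 (0.22), the J protein genes Dnajb11 (0.23) and Dnajc3 (0.15), the secreted factor gene Manf (0.30), Creld2 (0.28), and Derl3 (0.50), which takes part in removing misfolded proteins. The transcription factor genes of this response, Ddit3 (0.24), Xbp1 (0.21), Atf6 (0.21) and Atf4 (0.08), rose as well. Xbp1 and Atf4 were not called in the run sums or without the 14 libraries. Atf4 was also not called when the counts were scaled by library size alone. Ddit3 and Atf6 were called in each of these fits. Of the 7 that were not called, Herpud1 (0.01) and Dnajb9 (0.07) are targets of the response, and Derl1 (0.07), Derl2 (0.01), Edem1 (−0.04), Syvn1 (0.09) and Selenos (−0.01) take part in removing misfolded proteins.

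Many of these genes share a promoter element. The list was made of genes of the unfolded protein response, and factors of that response bind this element. The share within the list is therefore tied to how its genes were chosen. The endoplasmic reticulum stress element, CCAAT and CCACG separated by any 9 bases on either strand, is bound by NF-Y together with ATF6 or XBP1. It lay within 250 bases upstream of 9 of the 21 listed genes with a promoter in the table, of 8 of all 624 risen genes with one, of none of 341 fallen genes and of 21 of 12278 genes tested (0.171%). The stretches around it are shown for 6 genes that rose, with the element in capitals, to show how the spacing is kept while the 9 bases between CCAAT and CCACG vary. The element reads on the opposite strand in Calr, Creld2 and Derl3, and Hsp90b1 holds 1 copy on each strand. The stretches, from RefSeq on GRCm38.p6 and read along the gene's strand, are chr2:34771990-34772089 for Hspa5 (plus strand), chr10:86705513-86705676 for Hsp90b1 (minus strand), chr8:84847014-84847113 for Calr (minus strand), chr12:17266471-17266570 for Pdia6 (plus strand), chr15:88819500-88819599 for Creld2 (plus strand) and chr10:75893222-75893321 for Derl3 (plus strand).
Hspa5: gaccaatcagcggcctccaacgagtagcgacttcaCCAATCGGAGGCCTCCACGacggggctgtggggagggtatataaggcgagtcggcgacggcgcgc
Hsp90b1: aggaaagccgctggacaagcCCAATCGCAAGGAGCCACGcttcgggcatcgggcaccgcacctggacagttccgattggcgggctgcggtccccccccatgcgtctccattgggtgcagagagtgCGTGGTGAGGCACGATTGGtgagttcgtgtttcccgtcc
Calr: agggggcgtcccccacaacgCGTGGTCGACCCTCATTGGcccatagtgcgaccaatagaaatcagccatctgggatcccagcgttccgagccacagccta
Pdia6: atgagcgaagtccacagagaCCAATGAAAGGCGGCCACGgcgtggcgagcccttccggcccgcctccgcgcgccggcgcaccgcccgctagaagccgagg
Creld2: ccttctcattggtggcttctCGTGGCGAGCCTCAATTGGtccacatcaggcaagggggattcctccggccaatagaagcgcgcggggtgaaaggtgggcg
Derl3: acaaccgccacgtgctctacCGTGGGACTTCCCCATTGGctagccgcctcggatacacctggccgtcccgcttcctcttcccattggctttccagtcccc
The log2 fold changes of the 6 genes ran from 0.21 for Hsp90b1 to 0.50 for Hspa5 and Derl3. A heat shock element, GAA, TTC and GAA in this order with any 2 bases between neighbours on either strand, lay in the window of 2 of 14 heat shock list genes with a promoter, the adjoining Hspd1 and Hspe1, which share it, and of 53 of 12278 genes tested (0.432%). A match shows the letters and not binding.

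Clock genes were mixed. Of 19 tested, Per2, Per3 and Npas2 rose and Nr1d1 fell, which is 21.1% against 7.61% of all genes, and the median was 0.02. Per2, a clock repressor that is also induced by CREB and by glucocorticoids, went from 29.9 CPM (25.8 to 48.2) to 44.0 CPM (24.9 to 57.9), a change of 0.43 (SE 0.091, adjusted p = 0.00213). Nr1d1, which encodes the repressor REV-ERBα, ranged from 89 to 159 CPM without and from 79.4 to 117 CPM with interaction, and 17 of 20 SocialInteraction libraries lay below the NoInteraction median (−0.24, SE 0.058, adjusted p = 0.00662). The core genes Arntl (−0.07), Clock (0.06) and Dbp (0.02) were not called. The study's methods give morning sacrifice in randomized order for adult mice used for hormone measurements, and do not say whether this held for the 2 arms here. Per3 and Npas2 still rose and Nr1d1 fell without the 14 libraries, while Per2 was not called (0.38), and in the run sums no clock gene was called.

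Among the genes that fell, no list of the biology above was represented beyond Cirbp, Rbm3 and Nr1d1. Hmcn1, which encodes the extracellular matrix protein hemicentin 1, had the smallest adjusted p. It went from 6.07 CPM (4.64 to 7.48) to 4.29 CPM (3.08 to 5.9), and 13 of 20 SocialInteraction libraries lay below every NoInteraction library (−0.49, SE 0.06, adjusted p = 1.05e-06). Zfp804b, a zinc finger gene, had the steepest fall, from 4.17 CPM (2.25 to 6.45) to 2.74 CPM (1.26 to 3.69), with all 20 SocialInteraction libraries below the NoInteraction median (−0.66, SE 0.11, adjusted p = 8.95e-05).

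The membrane transporter gene Abcc6 went from 1.74 CPM (1.05 to 2.75) to 1.15 CPM (0.805 to 1.57), with a change of −0.57 (SE 0.1, adjusted p = 0.000239). Casq2, a calcium store protein gene, went from 2.27 CPM (1.88 to 3.44) to 1.69 CPM (0.859 to 2.77), and 14 of 20 libraries lay below every NoInteraction library (−0.49, SE 0.1, adjusted p = 0.00184). Slc22a3, an organic cation transporter gene, gave −0.56 (SE 0.13), the hyaluronan receptor gene Cd44 −0.43 (SE 0.12) and the retinoid transporter gene Abca4 −0.44 (SE 0.12). The steepest falls were completed by Ccno (−0.45), Nek11 (−0.43) and Tmsb15b1 (−0.43), each at a median of under 2 CPM.

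The falls with the smallest p after Hmcn1 were small in size and even across mice. Cfap54, a cilia gene, went from 34.4 CPM (30.6 to 38.7) to 30.1 CPM (25 to 32.9), with 12 of 20 libraries below every NoInteraction library (−0.23, SE 0.032, adjusted p = 7.95e-06). Tubgcp2, of the microtubule-nucleating complex, gave −0.14 (SE 0.02), Sfi1, a centrosome gene, −0.13 (SE 0.02) and Coq8a, of coenzyme Q synthesis, −0.13 (SE 0.02). Each of these 4 genes was below the NoInteraction median in all 20 SocialInteraction libraries. Of 64 axonemal dynein and cilia genes, a list made after values had been seen, 4 fell (Cfap54, Cfap46, Dnah7a and Dnah7c) and 1 rose, which is 7.81% against a background of 7.61%. Of these, Cfap54, Cfap46 and Dnah7a fell without the 14 libraries (3 genes) and none rose.

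Among structural genes, the neurofilaments form the axonal skeleton. Of 5 neurofilament genes, also listed after values had been seen, Nefm (0.39), Ina (0.30) and Nefh (0.22) rose (60% against 7.61% of all genes). Ina, the gene of α-internexin, went from 184 CPM (161 to 218) to 230 CPM (181 to 247), with 15 of 20 libraries above every NoInteraction library. Nefm and Ina rose without the 14 libraries. None of 13 mitochondrially encoded genes, none of 78 cytosolic ribosomal protein genes and 1 of 81 nuclear oxidative phosphorylation genes (Ndufb2, 0.08) were called by edgeR, with the smallest adjusted p of the 3 lists at 0.0272. No gene of these 3 lists was called without the 14 libraries. With scaling by library size alone Ndufb2 was not called. In that fit 5 of 78 ribosomal protein genes (Rpl4, Rpl14, Rpl17, Rpl37 and Rpl37a, −0.06 to −0.11) fell. So did 2 of 81 oxidative phosphorylation genes (Ndufv3 and Cox7a2l), beside 793 falls among all 15812 genes.

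Markers of other cells and tissues were set beside these results. None of 10 excitatory neuron, 8 GABAergic neuron, 8 astrocyte, 9 oligodendrocyte, 8 microglia, 10 endothelial and mural, 7 choroid plexus, 9 striatal, 11 olfactory bulb and 5 red blood cell markers were called, with the smallest adjusted p of 0.0548 in the microglia list. Without the 14 libraries the astrocyte marker Aldh1l1 rose (0.17, adjusted p = 0.0489) and the microglia marker P2ry12 fell (−0.13, adjusted p = 0.0495), and P2ry12 also fell with scaling by library size alone. Of 5 oligodendrocyte precursor markers, Cspg4 (0.21, SE 0.048) and Olig2 (0.17, SE 0.05) rose, which is 40% against 7.61% of all genes. Those not called were Olig1 (0.12, SE 0.06), Pdgfra (0.06, SE 0.038) and Gpr17 (−0.10, SE 0.042). Without the 14 libraries Cspg4 alone rose. In bulk tissue, more cells of a type and more RNA per cell cannot be told apart. The 8 meningeal fibroblast markers all had negative estimates, from −0.12 to −0.57 with a median of −0.29, and none was called. Without the 14 libraries that direction turned, with a median of 0.05 and 5 of 8 estimates above 0. Their summed level ranged from 30.0 to 356 CPM without and from 21.3 to 290 CPM with interaction. With their level as a covariate, the falls of matrix and membrane genes were −0.47 for Hmcn1, −0.54 for Abcc6, −0.50 for Slc22a3, −0.42 for Cd44 and −0.37 for Abca4, all called. Without the 14 libraries the values were −0.46, −0.52, −0.60, −0.48 and −0.39, of which that of Abca4 was not called.

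**Figure D2:**
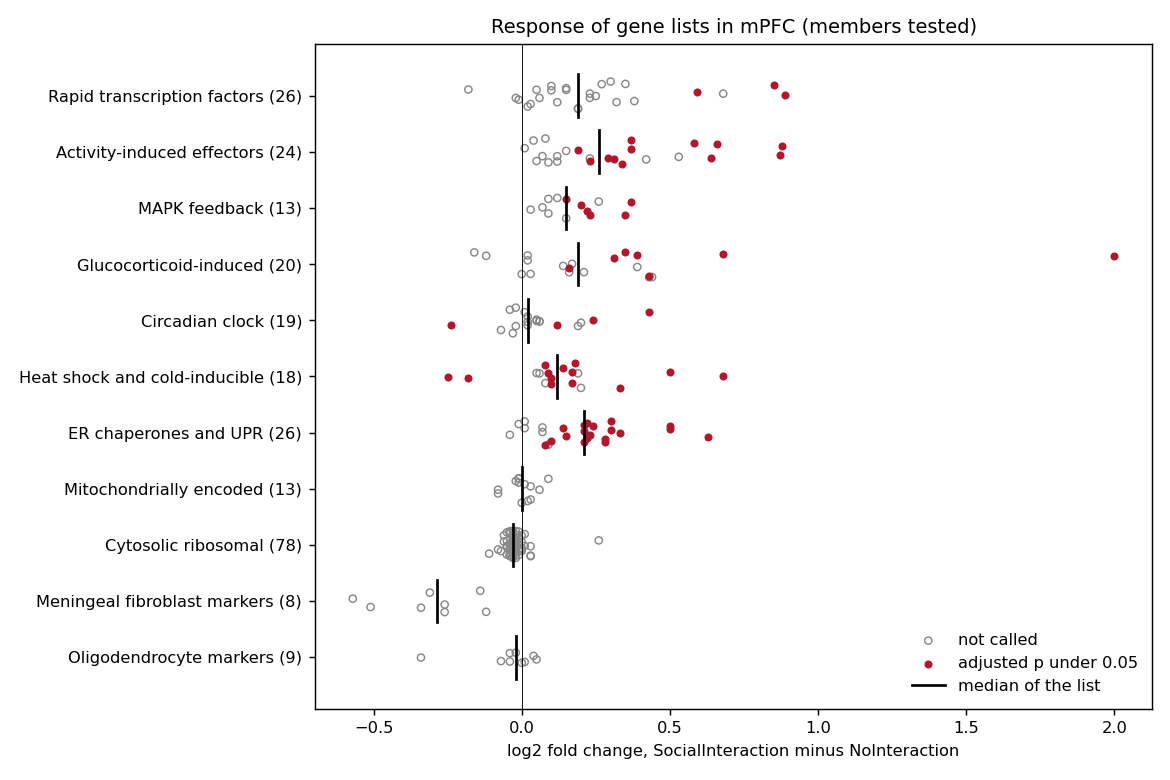
Log2 fold change of each tested member of 11 gene lists; filled points passed an adjusted p of 0.05, open points did not, and the black bar is the median of the list. The effectors and the endoplasmic reticulum chaperones lie to the right of 0 with medians of 0.26 and 0.21. The mitochondrially encoded genes have a median of 0 and the ribosomal genes one of −0.03, with 6 of 78 estimates above 0. The meningeal markers lie to the left without a call (their median was 0.05 without the 14 libraries).

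The genes that rose were longer and more abundant than the genes tested. The longest protein-coding transcript in GENCODE M21 had a median of 3996 bases for risen genes, 2845 for fallen genes and 3132 for all genes tested, over at least 99.5% of each set. The median GC content was 48.8%, 52.1% and 50.3%. The median level was 63.6 CPM for risen genes, 18.8 CPM for fallen genes and 19.7 CPM for all genes. A more deeply counted gene has less error and is more easily called in either direction, and any part of this here was not tested. The values describe the sets, and differences between the sets were not tested.

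The response was then examined within each rearing and treatment group. Within Ctrl_Vehicle 27 genes were called (0.171%), within ELA_Vehicle 7 (0.0443%) and within ELA_SAFit2 189 (1.2%). The numbers of calls cannot be set against each other as sizes of response, since the test of the difference between groups called no gene (0%, edgeR interaction test over 2 terms, smallest adjusted p 0.343, 420 genes at an unadjusted p under 0.05). The likelihood ratio test of DESeq2 called 1, Cwc22. Of the 1204 genes called over all groups, 1193 had the same sign in all 3. The median log2 fold change of the 782 risen genes was 0.115 in Ctrl_Vehicle, 0.101 in ELA_Vehicle and 0.137 in ELA_SAFit2, and that of the 422 fallen genes −0.11, −0.129 and −0.15.

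Nptx2 was the only gene called within each of the 3 groups. In Ctrl_Vehicle it lay at 33.9 to 48.2 CPM without (median 40.1) and 62.3 to 82.2 CPM with interaction (median 77.9). In ELA_Vehicle it lay at 30.7 to 58.0 CPM (median 52.2) and 55.1 to 95.6 CPM (median 74.6), and in ELA_SAFit2 at 30.5 to 49.6 CPM (median 43.7) and 61.7 to 106 CPM (median 85.0). The arms overlapped only in ELA_Vehicle. The 3 log2 fold changes were 0.86 (SE 0.14), 0.66 (SE 0.13) and 1.12 (SE 0.13), and the adjusted p of their difference was 0.989.

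Bdnf gave 0.55 (SE 0.14) in Ctrl_Vehicle, 0.46 (SE 0.14) in ELA_Vehicle and 0.91 (SE 0.14) in ELA_SAFit2. In ELA_SAFit2 its level was 17.6 to 25.6 CPM without interaction (median 18.2) and 30.6 to 45.0 CPM with it (median 39.6), with no overlap. Inhba gave 0.66 (SE 0.19), 0.77 (SE 0.19) and 1.17 (SE 0.19), and Dapk2 0.89 (SE 0.22), 1.15 (SE 0.21) and 1.42 (SE 0.21). Plin4 and Fkbp5 had the opposite order, with 2.52 (SE 0.51), 2.01 (SE 0.5) and 1.49 (SE 0.5) for Plin4 and 0.56 (SE 0.17), 0.36 (SE 0.16) and 0.26 (SE 0.16) for Fkbp5. Mouse 57 is in Ctrl_Vehicle. Neither order was shown to differ between groups by the interaction test, in which each of the 5 genes had an adjusted p of 0.989.

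**Figure D3:**
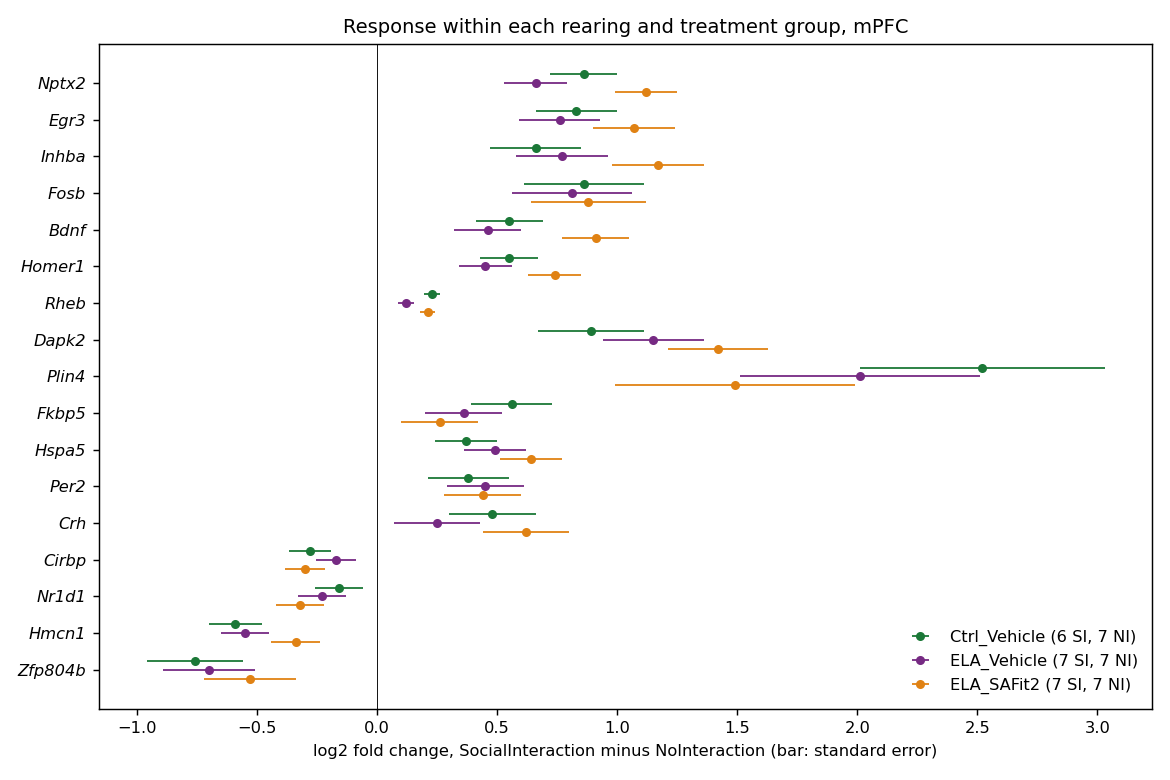
Log2 fold change (SocialInteraction minus NoInteraction) of 17 genes within Ctrl_Vehicle, ELA_Vehicle and ELA_SAFit2, with bars of 1 standard error. All 17 genes have the same sign in the 3 groups; the bars of ELA_SAFit2 lie farthest right for Nptx2, Inhba, Bdnf and Homer1 and farthest left among the rises for Plin4 and Fkbp5, and no gene passed the interaction test.

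The same 41 mice had been punched in the ACC and the BLA, so the mPFC response was compared with those regions within mice. Against the ACC, the neighbouring cortical area, no gene differed (0% of 16345, edgeR with mouse as a block, smallest adjusted p 0.143). The estimates nearest to a difference were those of Nptx2, which was larger in mPFC by 0.33 (SE 0.065), and Bdnf, larger by 0.30 (SE 0.063). The ACC values themselves were 0.57 for Nptx2, 0.64 for Egr3, 0.48 for Hspa5 and 2.54 for Plin4.

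Against the BLA, 30 of 16556 genes differed (0.181%), 25 with a more positive and 5 with a more negative response in mPFC. Of the 30, 28 were called in mPFC, against 7.61% of all genes, and 4 in the BLA. The tested difference includes the mPFC response itself, so genes picked by it tend to be called in mPFC. The 30 genes held several activity-induced genes. Egr3 changed by 0.28 in the BLA, 0.63 less than in mPFC (SE 0.11, adjusted p = 0.00339). Fosb was smaller in the BLA by 0.45 (SE 0.089, adjusted p = 0.0132), Homer1 by 0.31 (SE 0.066, adjusted p = 0.021), and Fosl2 and Pim1 were on the same list. Dapk2 gave 0.10 in the BLA (SE 0.16), a difference of 1.02 (SE 0.19, adjusted p = 0.0101). The 2 smallest adjusted p belonged to Dip2c, which changed by 0.20 in mPFC and 0.02 in the BLA (adjusted p of the difference 3.92e-05), and Megf11, with 0.47 and −0.13 (adjusted p = 0.000113).

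Glucocorticoid and folding genes were set beside each other in the 2 regions. The glucocorticoid list had 7 calls and a median of 0.19 in mPFC, and 4 calls and a median of 0.14 in the BLA. The endoplasmic reticulum list had 19 calls and a median of 0.21 in mPFC, and 9 calls and a median of 0.11 in the BLA. Over all genes, 1204 of 15812 were called in mPFC and 249 of 16556 in the BLA. The numbers of calls therefore cannot be set against each other as sizes of response, and differences between the lists were not tested. Plin4 changed by 1.76 in the BLA, Fkbp5 by 0.26, Hspa5 by 0.34 and Cirbp by −0.22, and their differences from mPFC were 0.13 (SE 0.15), 0.11 (SE 0.063), 0.15 (SE 0.044) and −0.04 (SE 0.039), none of them called. Without the 14 mice whose mPFC libraries were high in neighbouring-tissue markers, 5 genes differed between mPFC and BLA (Fosl2, Plat, Megf11, Dip2c and Maml3, all with a more positive response in mPFC) and 1 between mPFC and ACC (Fosl2, 0.34, SE 0.055, adjusted p = 0.0152), Plat and Maml3 being named because of the small count.

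**Figure D4:**
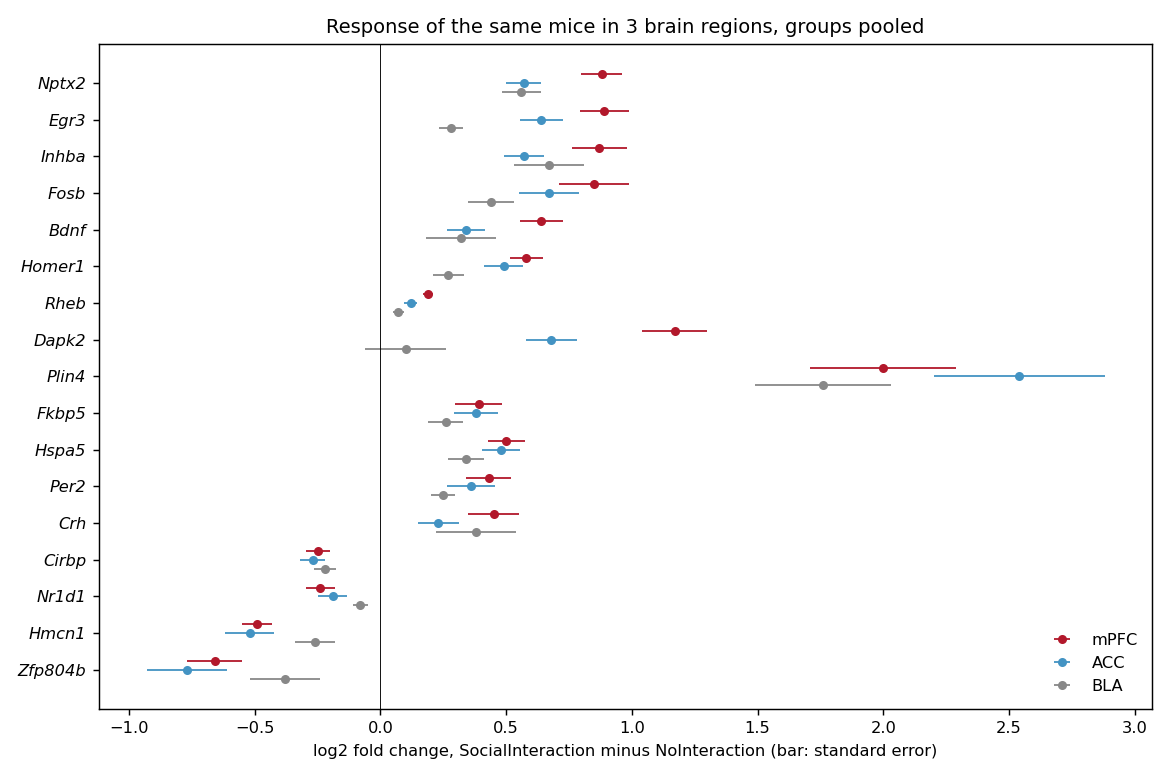
Log2 fold change (SocialInteraction minus NoInteraction, groups pooled) of 17 genes in mPFC, ACC and BLA of the same 41 mice, with bars of 1 standard error. Egr3, Fosb, Homer1 and Dapk2 lie farther right in mPFC than in the BLA, whereas Plin4, Fkbp5 and Cirbp overlap between mPFC and the BLA.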

How the data were processed

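The authors deposited salmon's estimated counts for 56691 genes and 246 libraries, with no scaling for depth or length. The submitters' processing notes name STAR, DESeq2, GRCm39 and mm39. Libraries were poly-A selected and strand-specific. In the mPFC, 11.95% of values were not whole and were rounded. Groups and mice were taken from the sample titles. Protein-coding genes (types from GENCODE M21, or RefSeq symbols for 978 genes) were tested where their counts summed to 100 or more over the 41 libraries and at least 6 libraries had a count, as in the study's methods. The model had group and social interaction as terms, in edgeR 4.0.16 (TMM, robust quasi-likelihood test, Benjamini-Hochberg adjustment, threshold 0.05) in R 4.3.3. Fold changes are moderated by edgeR's prior count, which understates those of scarce genes. SEs were derived from the estimate and its F statistic. The arms hold different mice, so that comparison has no pairing. Region differences used the mouse as a block. Litters were not given for the libraries, so mice may share one, and p-values measure the spread between these mice.

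Genes named follow a rule: among called genes the 10 steepest changes in each direction with a mean of at least 1 CPM, the 5 smallest p in each direction, called members of the activity lists, Fkbp5 and Nr3c1, and the 3 smallest p of the interaction and region tests. The comparison, its gene lists and this rule were chosen with earlier results of these data known. Members of other lists named in the text, and Crh, Dio2, Crem and Ntrk2, were named after their values were seen. No list was tested as a set. The scripts were tested on simulated counts. Alternatives used DESeq2 1.42.0 and limma 3.58.1, and figures Python 3.11.15 with matplotlib 3.10.9. At these depths a gene at 1 CPM has about 23 to 39 counts per library, which limits scarce genes.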

Additional observations from a re-analysis of the deposited data

Results flagged for a closer look

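Outlying mice were looked for in 28 genes whose library values are given in the text, within each of the 6 conditions. Of 168 such groups of 6 or 7 mice, 21 had a highest or lowest value set apart from the rest by Dixon's criterion, which by chance flags about 1 in 20 groups. Mouse 57 (Ctrl_Vehicle, interaction) was set apart for Plin4 (20.6 CPM, next 2.31), Fkbp5 (73.5 CPM, next 30.8), Tsc22d3 (74.7 CPM, next 39.2), Hspa5 (337 CPM, next 251) and Sdf2l1 (9.18 CPM, next 5.35). Mouse 59 (ELA_Vehicle, interaction) was set apart for Hspa5 (431 CPM, next 311) and Sdf2l1 (13 CPM, next 7.04), and mouse 63 (ELA_SAFit2, interaction) for Tsc22d3 (49.9 CPM, next 36.8). Only mouse 57 was set apart for both glucocorticoid targets and endoplasmic reticulum chaperones among these genes.

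Among the NoInteraction mice, mouse 41 (Ctrl_Vehicle) was the highest of its condition for Fos (56.3 CPM, next 17.5), Fosb (22.6 CPM, next 13.8) and Dapk2 (1.47 CPM, next 0.779), mouse 9 (Ctrl_Vehicle) for Homer1 (250 CPM, next 194) and mouse 15 (ELA_SAFit2) for Inhba (19.2 CPM, next 11.7), with the lowest Spry2 value (28.9 CPM, next 37.3). Of the mice in this paragraph, the libraries of mice 41, 15, 71 and 79 were high in olfactory bulb markers and those of mice 69 and 61 in striatal markers. Mouse 71 (ELA_SAFit2, no interaction) was highest for Nr1d1 (159 CPM, next 125) and Casq2 (2.98 CPM, next 2.42), an ELA_Vehicle mouse without interaction for Casq2 (2.83 CPM, next 2.32) and mouse 79 (ELA_SAFit2, interaction) for Crh (7.26 CPM, next 4.11). Low values were those of Rheb in a Ctrl_Vehicle mouse with interaction (89.4 CPM, next 93.9) and in mouse 69 (ELA_Vehicle, no interaction, 78.5 CPM, next 83.5) and of Zfp804b in mouse 61 (ELA_Vehicle, interaction, 1.26 CPM, next 2.5).

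The response to interaction differed between mPFC and BLA, by a test of the difference, for 30 genes. The differences, mPFC minus BLA on the log2 scale, were 1.02 for Dapk2, 0.63 for Egr3, 0.60 for Megf11, 0.45 for Fosb, 0.31 for Homer1 and 0.18 for Dip2c. Without the mice of the 14 libraries high in neighbouring-tissue markers, Megf11 and Dip2c were still called, and Dapk2, Egr3, Fosb and Homer1 were not.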

How the results depend on the processing

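The count of 1204 called genes stayed within 1.5 times under DESeq2 (1438), other size factors (1212 with RLE, 1256 with library size alone), other filters (1127 with no count filter, 1232 with filterByExpr, 1193 with all gene types), no group term (1228), equal weight for the 6 conditions (1169), oligodendrocyte and olfactory bulb marker covariates (1680), meningeal marker covariates (1545) and limma-voom with runs of mouse numbers as a random block (1164, correlation within runs 0.00595). The count was also within that bound without mouse 55 (1062), whose library name stands outside the consecutive names of the other mPFC libraries. Leaving out each library in turn gave 950 to 1355. It fell to 183 when counts were summed within runs (7 against 7 sums, so fewer samples) and to 540 without the 14 libraries high in neighbouring-tissue markers (27 left). The marker choice, the meningeal covariate and the fit without mouse 57 (1029) were chosen after seeing the data. None of 82 named called genes reversed. With run sums 33 of them were still called, without the 14 libraries 52, with library size alone 72. In the run sums 147 of all 15812 genes rose and 36 fell. Among the lists, 2 of 26 rapid factors, 7 of 24 effectors and 9 of 26 endoplasmic reticulum genes rose. So did 4 of 18 heat shock genes, 1 of 13 MAP kinase genes and 1 of 20 glucocorticoid genes, and no clock gene was called. Hspa5 is counted in both the endoplasmic reticulum and the heat shock list. The falls of Cirbp and Rbm3 were lost there. The interaction test called 0 genes without mouse 55 or the 14 libraries and 1 with DESeq2. For the region differences, no pairing by mouse block gave 0 genes against the ACC and 12 against the BLA in place of 30. Without the mice of the 14 libraries the counts were 1 and 5.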

Other observations

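Cwc22, a splicing factor gene, and the similar predicted genes Gm13697 and Gm13691 gave the 3 smallest p-values of the interaction between group and social interaction. Cwc22 was at 473 to 527 CPM in 4 mPFC libraries and at 20.1 to 27.5 CPM in the other 37. Of the 4 mice, 2 were ELA_Vehicle without interaction and 2 were ELA_SAFit2 with interaction. The same 4 mice had 219 to 519 CPM in the ACC and 503 to 550 CPM in the BLA, where the other 37 lay between 20.1 and 25.9 CPM and between 20.8 and 26.5 CPM. Gm13697 was at 12.7 to 17.5 CPM in the mPFC of these mice and at most 0.793 CPM in the others, and Gm13691 at 9.88 to 18.4 CPM and at most 0.364 CPM. The counting divides reads among near-identical copies, so the level of each of these genes is uncertain. The 3 regions examined of a mouse thus showed the same state, and the other 3 were not examined.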
